A study of Mus musculus with 36 samples.

Results

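The RNA of 10 genes of the NF-kB system was followed through electrical stimulation and *Tug1* knockdown in mouse muscle cells: 3 genes for DNA-binding subunits (*Nfkb1*, *Nfkb2* and *Relb*), 3 for the classical cytoplasmic inhibitors (*Nfkbia*, *Nfkbib* and *Nfkbie*), 2 for nuclear inhibitor-like cofactors (*Nfkbiz* and *Bcl3*) and 2 for enzymes that remove ubiquitin from upstream signalling proteins (*Tnfaip3* and *Cyld*). They were taken by gene name, 10 of the 55416 genes counted, and not by a threshold on any value, although earlier results of these data were known when they were chosen. After stimulation and 3 h of recovery the RNA of *Nfkbia*, *Nfkbie* and *Bcl3* was at between 0.21 and 0.32 of the Rest level, in control and in *Tug1* KD myotubes. *Nfkbiz*, *Cyld* and *Nfkb1* were higher than at Rest in the same libraries. Without replicate 6 of both Rest groups, the falls of *Nfkbia*, *Nfkbie* and *Bcl3* were smaller. Their log2FC then lay between -2.21 (*Nfkbia*, *Tug1* KD) and -1.29 (*Nfkbie*, control), and all were still called. Between *Tug1* KD and control myotubes *Cyld* was the only one of the 10 to pass the main test, in a comparison where the control LNA itself is listed as matching an intron of the gene. *Nfkbia* at EPS 0h did not pass the main test (FDR 0.105). It was called lower under the *Tug1* LNA in 2 of 10 alternative fits, such as with the replicate number as a block (log2FC -0.30, FDR 0.0401).

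NF-kB dimers are held in the cytoplasm by inhibitor proteins (IkB), which are destroyed after phosphorylation by the IKK complex when a receptor for TNF, IL-1 or bacterial products is engaged. The freed dimers enter the nucleus and switch on inflammatory genes together with the genes of their own inhibitors, so that IkBα, encoded by *Nfkbia*, is made again and ends the signal. In skeletal muscle the pathway is best known for its part in inflammation, in wasting and in the balance between myoblast proliferation and differentiation.

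The cells were C2C12, a clonal mouse myoblast line that fuses into multinucleate myotubes in differentiation medium, and all groups rest on this 1 line. On day 3 of differentiation every well was transfected with an antisense locked nucleic acid (LNA), either one directed at the long noncoding RNA *Tug1* (*Tug1* KD) or a negative control sequence (control), so no group was free of transfection. On day 4 wells stayed unstimulated (Rest) or contracted under electrical pulse stimulation (EPS) for 3 h, and stimulated wells were harvested at once (EPS 0h) or 3 h later (EPS 3h). The 6 groups hold 6 libraries each, 36 in all, from wells of 2 experiments, so the tests measure the spread between these libraries. Rest is 1 group per LNA, and EPS 0h and EPS 3h are both compared with its libraries. No Rest group is labelled for the 3 h of recovery, so at EPS 3h stimulation and the added time in culture cannot be told apart. Bulk RNA cannot tell less RNA per cell from fewer cells that make it.

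Libraries held between 17005079 and 24181167 counts on genes. Levels are given as RPM, reads per 1000000 counts, scaled by edgeR's TMM factors. Changes are given as log2FC with the standard error (SE) from edgeR's quasi-likelihood test over 13995 genes, called at a false discovery rate (FDR, Benjamini-Hochberg) under 0.05. *Tug1* itself was reduced by its LNA, to 27.2 ± 3.68 RPM against 48.3 ± 6.77 RPM in control myotubes at Rest (mean ± SD, n = 6, log2FC -0.83, FDR 0.000915). It was also lower than in control myotubes at EPS 0h (log2FC -0.57, FDR 0.0178) and EPS 3h (log2FC -0.51, FDR 0.0414). From Rest to EPS 3h *Tug1* rose in both LNAs (control log2FC 0.75, FDR 0.00033, *Tug1* KD 1.06, FDR 2.68e-06). All 8 myotube markers (such as *Myog*, *Myh3* and *Ttn*) were detected in every library, with a summed level of 14719 to 19884 RPM. Replicate 6 of both Rest groups stood apart: it held the group's highest value for 9 of the 10 genes in control and for 10 of 10 in *Tug1* KD myotubes. Replicates 1 to 3 and 4 to 6 parted from each other in the Rest and EPS 0h groups, and the EPS 3h libraries of replicate 3 parted from those of replicates 1 and 2. Where a call rests on any of these libraries, it is given with and without them.

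**Figure D1:**
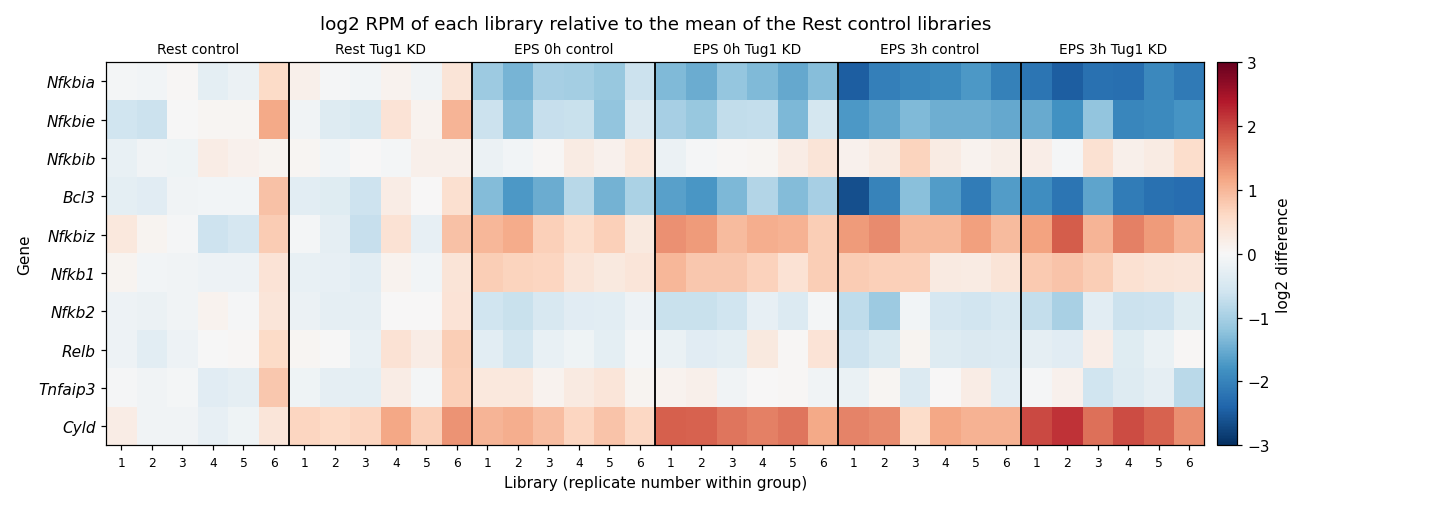
The log2 RPM of each gene in each of the 36 libraries is coloured by its difference from the mean log2 RPM of the 6 Rest control libraries, with libraries in columns by group and replicate number. *Nfkbia*, *Nfkbie* and *Bcl3* are blue in the stimulated groups, *Cyld*, *Nfkbiz* and *Nfkb1* are red there, and replicate 6 of both Rest groups is redder than its neighbours for most genes.

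All 10 genes passed the low-count filter. Per kilobase of the canonical GENCODE transcript, the mean level in Rest control myotubes was highest for *Nfkbia* at 48.0 RPM per kb, followed by *Nfkb1* at 27.7, *Nfkbib* at 22.5 and *Nfkb2* at 20.2 RPM per kb. *Relb* (14.8 RPM per kb), *Nfkbiz* (14 RPM per kb) and *Nfkbie* (11.8 RPM per kb) lay in the middle. *Tnfaip3* (6.82 RPM per kb), *Cyld* (6.06 RPM per kb) and *Bcl3* (4.65 RPM per kb) were the lowest.

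In control myotubes 3 of the 10 genes had risen and 4 had fallen by EPS 0h, beside 20.5% of all tested genes that rose and 18.4% that fell. At EPS 3h, 4 were higher and 5 lower, against 26.1% and 25.9% of all genes. In *Tug1* KD myotubes 3 were higher and 4 lower at EPS 0h (24.4% and 21.2% of all genes), and 3 higher and 5 lower at EPS 3h (26.2% and 25.9% of all genes). The median log2FC of the 10 genes at EPS 3h was -0.26 in control and -0.38 in *Tug1* KD myotubes, beside -0.02 and -0.04 over all tested genes. At EPS 0h it was -0.10 in control and -0.14 in *Tug1* KD myotubes, beside -0.03 in both over all tested genes. The 10 genes moved both ways at each time. These counts and medians include Rest replicate 6, without which every log2FC of the 10 genes against Rest was higher, in both LNAs. *Tnfaip3* was then also called higher at EPS 0h in control myotubes (0.43, FDR 0.00714). *Nfkb2* was no longer called at EPS 0h (control -0.32, FDR 0.0745, *Tug1* KD -0.30, FDR 0.0761). *Relb* was no longer called at EPS 3h (control -0.21, FDR 0.203, *Tug1* KD -0.26, FDR 0.11).

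**Figure D2:**
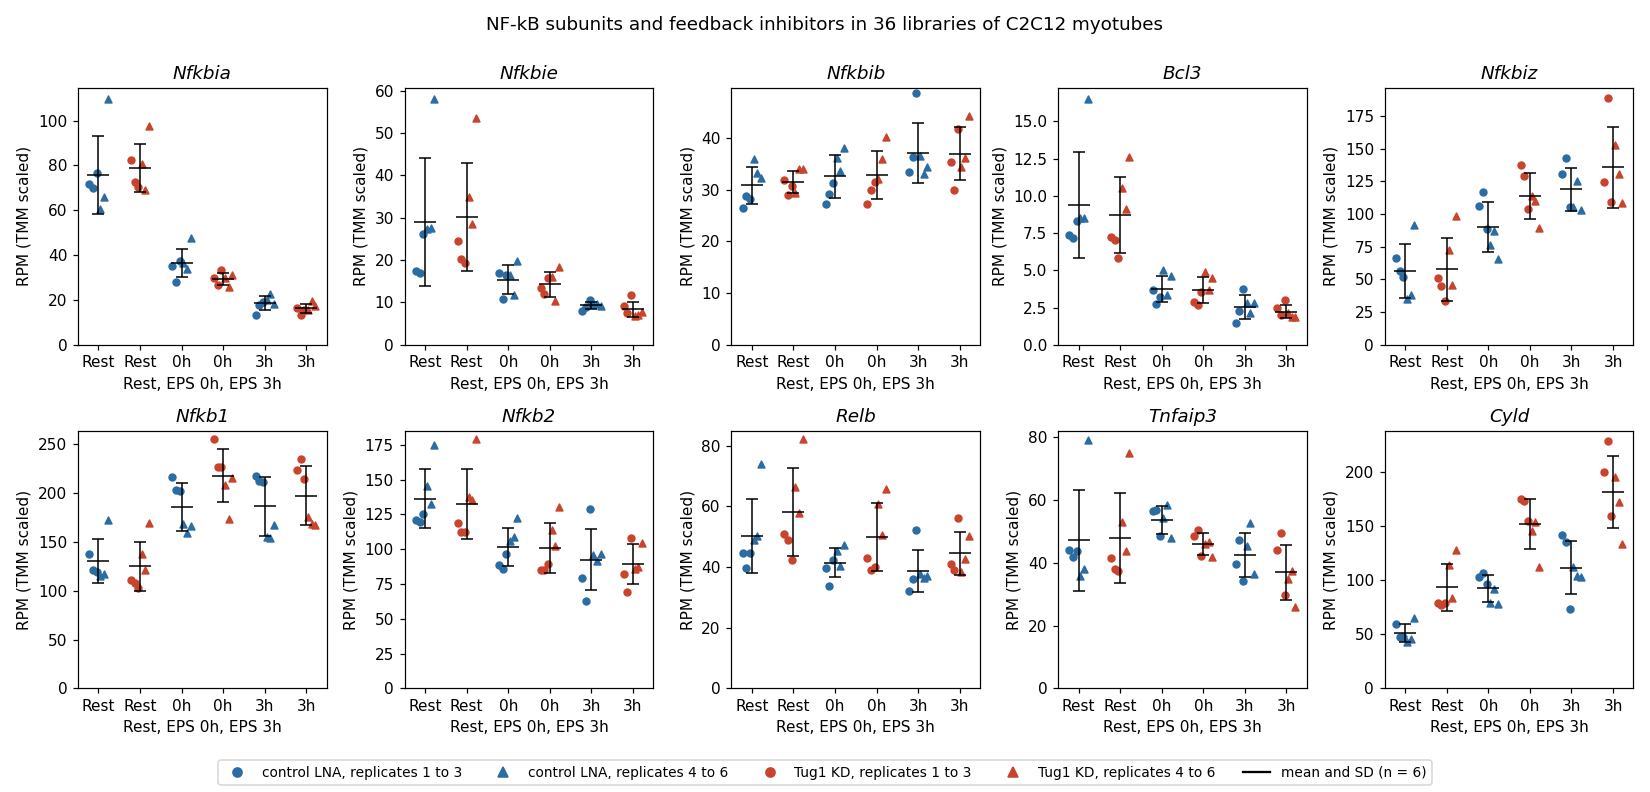
Each point is the TMM-scaled RPM of 1 gene in 1 library (circles, replicates 1 to 3; triangles, replicates 4 to 6; blue, control; red, *Tug1* KD), with the mean and SD of 6 libraries in black, for Rest, EPS 0h and EPS 3h from left to right and each vertical axis starting at 0. *Nfkbia*, *Nfkbie* and *Bcl3* step down from Rest to EPS 3h, while *Cyld* steps up and has its red points above its blue ones at each time, with some overlap at EPS 3h.

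Short stretches of DNA just before the start sites of *Nfkbia*, *Relb* and *Cyld* are shown because they match a form of the κB consensus, the sequence pattern that NF-kB dimers prefer, while *Nfkbia* and *Cyld* moved in opposite directions. The 250 bases before the start of each canonical transcript were searched on both strands for this 10-base pattern. The form used was GGGRNYYYCC, where R is A or G, Y is C or T and N is any base. Looser forms, which would take in stretches such as gggggattcc before *Nfkbie*, were not searched. It was found in 3 of the 10 genes (*Nfkbia*, *Relb* and *Cyld*), against 5.58% of 12573 promoters of tested protein-coding genes. Each stretch of 30 bases reads 5′ to 3′ on the strand of the gene, in build GRCm39, with the match in capitals:
Nfkbia, chr12:55539442-55539471 (minus strand): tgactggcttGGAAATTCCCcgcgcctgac
Relb, chr7:19363441-19363470 (minus strand): gtgagcagcgGGGGTTTTCCcattcccttt
Cyld, chr8:89423491-89423520 (plus strand): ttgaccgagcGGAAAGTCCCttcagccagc
In *Nfkbia* the match covers positions -29 to -20 before the start, in *Relb* -37 to -28 and in *Cyld* -175 to -166. The matches in *Nfkbia* and *Cyld* read as the motif on the opposite strand, and the *Cyld* stretch, though before the canonical start, lies inside the annotated span of the gene. Of these 3 genes, *Nfkbia* was lower and *Cyld* higher at EPS 3h than at Rest. *Relb* was called lower there too, but not without Rest replicate 6 (control -0.21, FDR 0.203, *Tug1* KD -0.26, FDR 0.11). No match in the other 7 genes says only that this form of the pattern is not in those 250 bases.

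*Nfkbia* (ENSMUSG00000021025, chr12:55535332-55539432, minus strand) encodes IkBα, the inhibitor that is rebuilt fastest after NF-kB activation. In Rest control myotubes its level had a lowest value of 60.6, a median of 70.9 and a highest value of 109.8 RPM. At EPS 0h in control myotubes it spanned 28.1 to 47.6 RPM (median 35.9), and at EPS 3h 13.3 to 22.7 RPM (median 18.7). The 3 ranges did not overlap, so every stimulated library lay below every Rest library and every EPS 3h library below every EPS 0h library. The fall was -1.06 ± 0.13 (log2FC ± SE, FDR 4.11e-08) at EPS 0h and -2.03 ± 0.13 (FDR 7.05e-15) at EPS 3h, a level 0.24 times that at Rest. For *Tug1* KD myotubes the ranges were 68.9 to 97.4 RPM at Rest (median 76.6), 25.8 to 33.3 RPM at EPS 0h (median 29.8) and 13.3 to 19.6 RPM at EPS 3h (median 16.1). Again no pair of times overlapped. The log2FC was -1.42 (FDR 6.42e-11) at EPS 0h and -2.27 (FDR 3.9e-16) at EPS 3h.

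The fall of *Nfkbia* went on through recovery, by -0.97 ± 0.13 from EPS 0h to EPS 3h in control (FDR 8.37e-07) and by -0.85 ± 0.13 in *Tug1* KD myotubes (FDR 8.12e-06). In that step 2 of the 10 genes were lower and 0 higher in control myotubes (edgeR, 6.88% and 9.67% of all genes), and 3 were lower and 0 higher in *Tug1* KD myotubes (7.13% and 8.59% of all genes). DESeq2 also called 0 higher there, as did limma-voom, and the unadjusted p was under 0.05 for 3 genes in each LNA, all of them lower. Those 3 were *Nfkbia*, *Nfkbie* and *Bcl3*. In replicates 1 to 3 alone *Nfkbib* was called higher in control myotubes (0.45, FDR 0.0259). That set holds EPS 3h replicate 3, at 48.6 RPM against 33.4 and 36.4 RPM in replicates 1 and 2. It was the only 1 of the 10 alternatives to call *Nfkbib* in this step, and over all 10 the log2FC ran from -0.05 to 0.45.

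*Nfkbie* (ENSMUSG00000023947, chr17:45866585-45874661, plus strand) encodes IkBε, a slower classical inhibitor. In Rest control myotubes it ranged from 16.9 to 58.1 RPM with a median of 26.8, the high end being replicate 6. At EPS 0h it ranged from 10.9 to 19.7 RPM (median 16.4), and at EPS 3h from 7.95 to 10.5 RPM (median 9.35). The EPS 0h range overlapped that of Rest at the low end, where replicates 1 and 2 of Rest lay, while the EPS 3h range lay wholly below both. *Nfkbie* fell by 0.92 ± 0.23 on the log2 scale at EPS 0h (FDR 0.00192) and by 1.64 ± 0.24 at EPS 3h (FDR 4.99e-07). Without replicate 6 of Rest the log2FC was -0.57 (FDR 0.00975) and -1.29 (FDR 2.47e-07), and in replicates 1 to 3 alone the EPS 0h value was -0.46 (FDR 0.0728).

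*Nfkbie* in *Tug1* KD myotubes ranged from 19.3 to 53.6 RPM at Rest (median 26.5), 10.4 to 18.4 RPM at EPS 0h (median 14.5) and 6.85 to 11.7 RPM at EPS 3h (median 7.65). Both stimulated groups lay below every Rest library. The log2FC was -1.07 (FDR 0.000305) at EPS 0h and -1.85 (FDR 5.44e-08) at EPS 3h. Between EPS 0h and EPS 3h the log2FC was -0.72 in control (FDR 0.0317) and -0.78 in *Tug1* KD myotubes (FDR 0.0216). The control value missed the threshold with limma-voom (FDR 0.0621), without the low-count filter (FDR 0.0509) and in replicates 4 to 6 alone (FDR 0.0916), and the *Tug1* KD value missed it in replicates 1 to 3 alone (-0.53, FDR 0.124).

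*Nfkbib* (ENSMUSG00000030595, chr7:28457486-28466937, minus strand) encodes IkBβ, a classical inhibitor that is not strongly induced by NF-kB itself. Control libraries ranged from 26.4 to 36 RPM at Rest (median 30.5), 27.3 to 38.0 RPM at EPS 0h (median 32.4) and 33.1 to 48.6 RPM at EPS 3h (median 35.4). The groups overlapped throughout, and the top value at EPS 3h was replicate 3. The log2FC was 0.08 at EPS 0h (FDR 0.586) and 0.26 at EPS 3h (FDR 0.0359). The EPS 3h value did not pass without replicate 3 of EPS 3h (0.16, FDR 0.183), when scaled by library size only (0.09, FDR 0.433), without the low-count filter (0.18, FDR 0.296) or in replicates 4 to 6 alone (0.03, FDR 0.826). Under the *Tug1* LNA it was 0.23 (FDR 0.0652), and it passed with DESeq2 (0.26, FDR 0.0368), with the replicate block (0.23, FDR 0.0285) and with the 2 sets of replicates as a block (0.23, FDR 0.0358). The *Tug1* KD libraries held 29 to 34 RPM at Rest (median 31.3), 27.2 to 40.1 RPM at EPS 0h (median 31.7) and 30.0 to 44.2 RPM at EPS 3h (median 35.8). These groups overlapped as well, and *Nfkbib* was not called lower at either time in either LNA. The span of *Nfkbib* overlaps that of *Sirt2* on the opposite strand, and the strand setting of the count is not given in the sources used here.

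*Bcl3* (ENSMUSG00000053175, chr7:19541553-19557570, minus strand) encodes a nuclear IkB protein that binds p50 and p52 homodimers on DNA and can activate or repress. It was the scarcest of the 10 genes, with 7.14 to 16.5 RPM in Rest control myotubes (median 8.41), 2.73 to 5.01 RPM at EPS 0h (median 3.50) and 1.44 to 3.74 RPM at EPS 3h (median 2.53). Every stimulated control library lay below every Rest control library, and the 2 stimulated groups overlapped each other. *Bcl3* fell by 1.32 ± 0.22 on the log2 scale at EPS 0h (FDR 8.05e-06) and by 1.89 ± 0.22 at EPS 3h (FDR 7.28e-09). Without replicate 6 of Rest, which held 16.5 RPM, the log2FC was -1.05 and -1.63 and both passed (FDR 4.99e-05 and 2.35e-08).

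*Tug1* KD myotubes held 5.79 to 12.6 RPM of *Bcl3* at Rest (median 8.18), 2.69 to 4.88 RPM at EPS 0h (median 3.59) and 1.84 to 2.98 RPM at EPS 3h (median 2.04). Their Rest range again lay above both stimulated ranges. The log2FC was -1.24 (FDR 1.61e-05) and -1.98 (FDR 3.5e-09). From EPS 0h to EPS 3h it was -0.57 in control (FDR 0.0795) and -0.74 in *Tug1* KD myotubes (FDR 0.0216), the second of which missed the threshold with limma-voom (FDR 0.0546) and in replicates 1 to 3 alone (-0.30, FDR 0.537). The control value passed without Rest replicate 6 (FDR 0.0366), without EPS 3h replicate 3 (-0.72, FDR 0.0313) and with library-size scaling (-0.67, FDR 0.0299).

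*Nfkbiz* (ENSMUSG00000035356, chr16:55631738-55659262, minus strand) encodes IkBζ, the other nuclear IkB here, a cofactor needed for a second wave of NF-kB targets such as *Il6*. It moved the opposite way to *Bcl3*. Control libraries ranged from 34.8 to 91.4 RPM at Rest (median 54.3), 65.2 to 116.5 RPM at EPS 0h (median 87.7) and 102.7 to 142.9 RPM at EPS 3h (median 115.5). The EPS 0h range overlapped that of Rest because of Rest replicate 6 at 91.4 RPM and Rest replicate 1, and every EPS 3h library lay above every Rest library. The rise was 0.67 ± 0.21 at EPS 0h (FDR 0.0098) and 1.07 ± 0.21 at EPS 3h (log2FC ± SE, FDR 5.09e-05), a 2.10-fold level. Without Rest replicate 6 it was 0.89 and 1.30 (FDR 0.00011 and 1.78e-07). In replicates 4 to 6 alone the EPS 0h value was 0.48 (FDR 0.235).

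*Nfkbiz* in *Tug1* KD myotubes ranged from 33.4 to 98.5 RPM at Rest (median 48.3), 89.4 to 137.4 RPM at EPS 0h (median 111.8) and 108.6 to 188.7 RPM at EPS 3h (median 127.2). Again the Rest group overlapped EPS 0h through replicate 6 and did not overlap EPS 3h. The log2FC was 0.98 (FDR 0.000229) at EPS 0h and 1.23 (FDR 6.29e-06) at EPS 3h, and the EPS 0h value missed the threshold in replicates 4 to 6 alone (0.53, FDR 0.188).

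**Figure D3:**
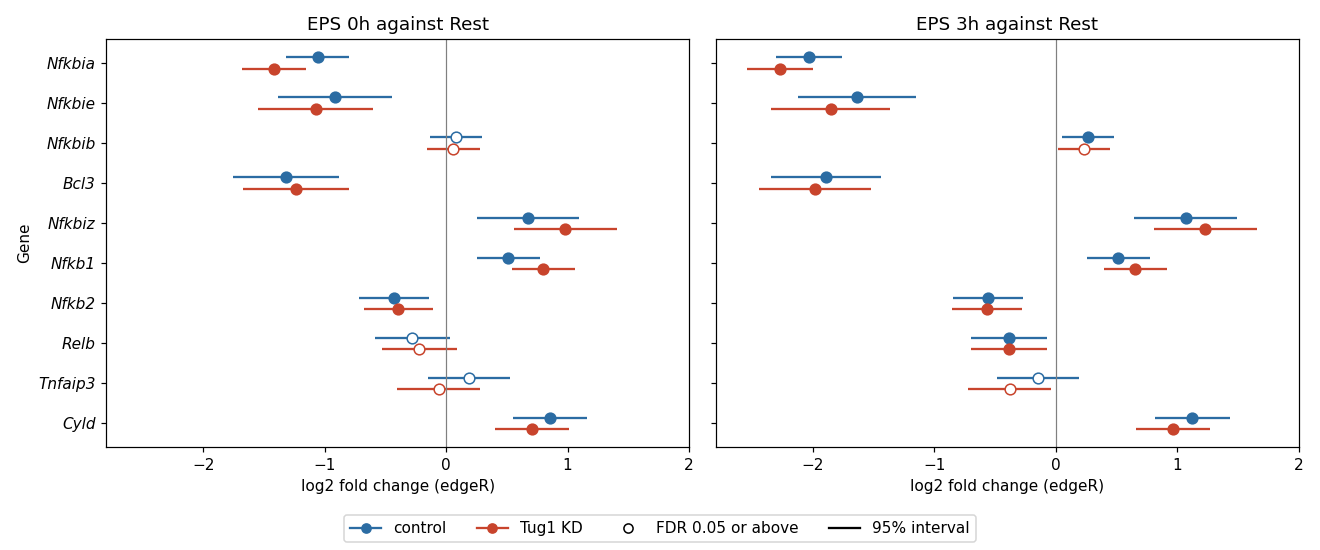
Points are the edgeR log2FC of each gene at EPS 0h (left) and EPS 3h (right) against Rest in control (blue) and *Tug1* KD myotubes (red), with 95% intervals as lines and open points where the FDR is 0.05 or above. *Nfkbia*, *Nfkbie* and *Bcl3* lie left of -0.9 in both panels, *Cyld*, *Nfkbiz* and *Nfkb1* lie right of 0.5, and *Tnfaip3* is open throughout.

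*Nfkb1* (ENSMUSG00000028163, chr3:135290264-135397742, minus strand) encodes p105, the precursor of the p50 subunit and itself an inhibitor. In control myotubes it ranged from 115.3 to 172.9 RPM at Rest (median 120.3), 158.8 to 216.9 RPM at EPS 0h (median 185.3) and 153.7 to 217.9 RPM at EPS 3h (median 189.8). The stimulated libraries lay above all Rest libraries except replicate 6. The log2FC was 0.51 ± 0.13 at EPS 0h (FDR 0.0016) and 0.51 ± 0.13 at EPS 3h (FDR 0.000923). In replicates 4 to 6 alone it was 0.28 (FDR 0.131) and 0.24 (FDR 0.167), and without Rest replicate 6 it was 0.63 (FDR 2.31e-05) and 0.64 (FDR 9.71e-06). In *Tug1* KD myotubes the ranges were 103.2 to 169.6 RPM at Rest (median 116.1), 173.9 to 255.8 RPM at EPS 0h (median 221.4) and 167.2 to 234.6 RPM at EPS 3h (median 195.5), with log2FC of 0.80 (FDR 4.32e-06) and 0.66 (FDR 4.92e-05). There every EPS 0h library lay above every Rest library, and the EPS 3h value missed the threshold in replicates 4 to 6 alone (0.25, FDR 0.147).

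*Nfkb2* (ENSMUSG00000025225, chr19:46292759-46303812, plus strand) encodes p100, the precursor of p52 and the subunit of the noncanonical pathway. Control libraries ranged from 119.7 to 175.1 RPM at Rest (median 128.6), 85.6 to 122.3 RPM at EPS 0h (median 101.4) and 63.1 to 128.6 RPM at EPS 3h (median 93.5). All 6 stimulated libraries of each time lay below the Rest mean, and both ranges overlapped that of Rest, at EPS 3h through replicate 3 (128.6 RPM). *Nfkb2* fell by 0.43 ± 0.14 on the log2 scale at EPS 0h (FDR 0.0154) and by 0.56 ± 0.14 at EPS 3h (FDR 0.00113). Without Rest replicate 6 the EPS 0h value was -0.32 (FDR 0.0745), and in replicates 1 to 3 alone the values were -0.44 (FDR 0.062) and -0.42 (FDR 0.0638). *Nfkb2* in *Tug1* KD myotubes ranged from 112.2 to 179.0 RPM at Rest (median 127.1), 84.7 to 130.1 RPM at EPS 0h (median 95.9) and 69.0 to 107.9 RPM at EPS 3h (median 86.8). The EPS 3h libraries all lay below the Rest libraries, and the EPS 0h libraries overlapped them. The log2FC was -0.39 (FDR 0.0228) and -0.57 (FDR 0.00105). The first was lost without Rest replicate 6 (-0.30, FDR 0.0761), and both missed the threshold in replicates 1 to 3 alone (FDR 0.0755 and 0.0784). The span of *Nfkb2* overlaps those of *Psd* and *4833438C02Rik* on the opposite strand.

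*Relb* (ENSMUSG00000002983, chr7:19339017-19363425, minus strand) encodes RelB, the partner of p52. Control libraries ranged from 39.7 to 73.9 RPM at Rest (median 46.7), 33.9 to 47.2 RPM at EPS 0h (median 41.5) and 32.1 to 52.1 RPM at EPS 3h (median 36.7), with overlap at both times. The log2FC was -0.28 ± 0.15 at EPS 0h (FDR 0.155) and -0.38 ± 0.15 at EPS 3h (FDR 0.0363). The EPS 3h value did not pass without Rest replicate 6 (-0.21, FDR 0.203) or in replicates 1 to 3 alone (-0.08, FDR 0.687). *Relb* in *Tug1* KD myotubes ranged from 42.3 to 82.3 RPM at Rest (median 54.3), 38.9 to 65.9 RPM at EPS 0h (median 46.8) and 38.5 to 56.2 RPM at EPS 3h (median 41.8), again with overlap. The log2FC was -0.22 (FDR 0.245) at EPS 0h and -0.38 (FDR 0.0356) at EPS 3h, and the latter did not pass without Rest replicate 6 (-0.26, FDR 0.11) or in replicates 1 to 3 alone (-0.05, FDR 0.823). The call on *Relb* therefore depended on single libraries in both LNAs.

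*Tnfaip3* (ENSMUSG00000019850, chr10:18874201-18891405, minus strand) encodes A20, a ubiquitin-editing enzyme that is a classical NF-kB target and brake. Control libraries ranged from 35.7 to 79.3 RPM at Rest (median 42.9), 47.8 to 58.6 RPM at EPS 0h (median 55.4) and 34.1 to 52.7 RPM at EPS 3h (median 42.6). The EPS 0h libraries lay above 5 of the 6 Rest libraries and below replicate 6. The log2FC was 0.19 ± 0.17 at EPS 0h (FDR 0.384) and -0.15 ± 0.17 at EPS 3h (FDR 0.484). Without Rest replicate 6 the EPS 0h value was 0.43 and passed (FDR 0.00714), and the EPS 3h value was 0.10 (FDR 0.545). In *Tug1* KD myotubes the ranges were 37.3 to 75 RPM at Rest (median 42.6), 42.0 to 50.5 RPM at EPS 0h (median 46.4) and 26.0 to 49.4 RPM at EPS 3h (median 36.2), with log2FC of -0.06 (FDR 0.78) and -0.38 (FDR 0.056) and overlap between all groups. The latter passed when scaled by library size only (-0.54, FDR 0.0073), without the low-count filter (-0.53, FDR 0.00643) and in replicates 4 to 6 alone (-0.80, FDR 0.0117). Without Rest replicate 6, which held the 75 RPM, it was -0.21 and did not pass (FDR 0.16). Over the 10 alternatives it ran from -0.80 to 0.10, and 4 of them passed.

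*Cyld* (ENSMUSG00000036712, chr8:89423468-89478574, plus strand) encodes a deubiquitinase that strips ubiquitin chains from TRAF and NEMO proteins and so restrains IKK. It rose with stimulation in both LNAs, and its level under the *Tug1* LNA exceeded that under the control LNA at each time. At Rest the control libraries held 42.6 to 64.7 RPM (median 47.0) and the *Tug1* KD libraries 76.6 to 127.6 RPM (median 81.0). At EPS 0h control libraries held 77.6 to 106.5 RPM (median 94.0) and *Tug1* KD libraries 111.6 to 174.6 RPM (median 153.9). The 2 LNAs did not overlap at either of these times. At EPS 3h control libraries held 73.4 to 141.2 RPM (median 107.8) and *Tug1* KD libraries 133.3 to 227.9 RPM (median 183.6). There the ranges overlapped, although each *Tug1* KD library was above the control mean.

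With stimulation *Cyld* rose by a log2FC of 0.85 ± 0.15 at EPS 0h (FDR 2.57e-05) and 1.12 ± 0.15 at EPS 3h (FDR 1.09e-07) in control myotubes. Under the *Tug1* LNA it rose by 0.71 ± 0.15 (FDR 0.000216) and 0.96 ± 0.15 (FDR 1.55e-06). No stimulated control library overlapped the Rest control range. In replicates 4 to 6 alone, the *Tug1* KD value at EPS 0h was 0.34 (FDR 0.153).

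In the main test *Cyld* was the only one of the 10 genes called for *Tug1* KD. At Rest 1 gene was higher and 0 lower (5.54% and 4.47% of all genes), at EPS 0h 1 and 0 (8.25% and 6.07%), and at EPS 3h 1 and 0 (6.38% and 5.11%). DESeq2 and limma-voom also called 0 of the 10 lower at each time, and at an unadjusted p under 0.05 edgeR had *Cyld* at each time and *Nfkbia* at EPS 0h. *Nfkbia* was called lower at EPS 0h with the replicate block (FDR 0.0401) and without Rest replicate 6 (FDR 0.0412). The log2FC of *Cyld* was 0.87 ± 0.15 at Rest (FDR 0.000106), 0.72 ± 0.15 at EPS 0h (FDR 0.000743) and 0.70 ± 0.15 at EPS 3h (FDR 0.00125), which is 1.82-fold, 1.65-fold and 1.63-fold. At Rest replicates 1 to 3 alone gave 0.61 (FDR 0.0575) and replicates 4 to 6 alone 1.08 (FDR 0.00025). An intron of *Cyld* is listed in the description of the gene set as holding a full match to the control LNA, which was not searched for again here. The presence of the control LNA and the absence of the *Tug1* LNA cannot be told apart in this difference.

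**Figure D4:**
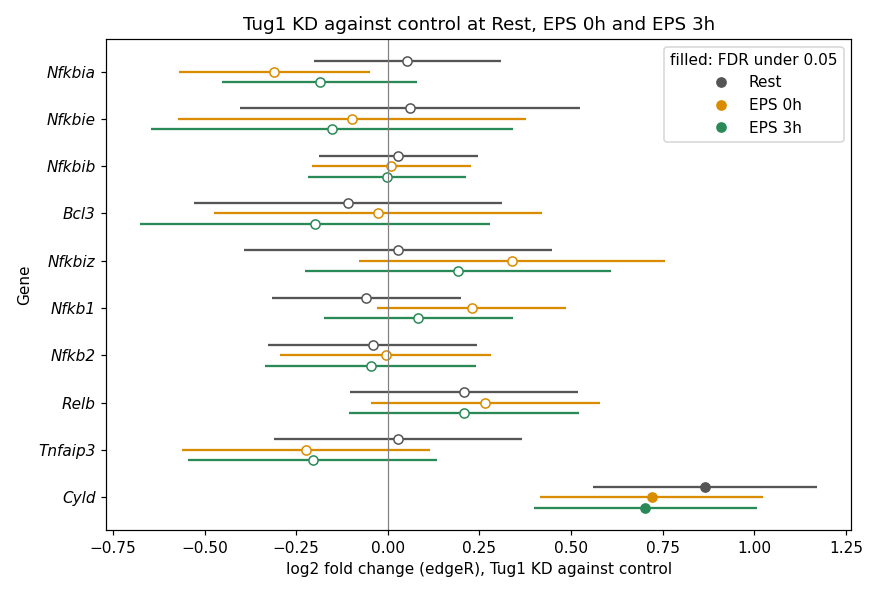
Points are the edgeR log2FC of *Tug1* KD against control myotubes for each gene at Rest (grey), EPS 0h (orange) and EPS 3h (green), with 95% intervals as lines and filled points where the FDR is under 0.05. *Cyld* alone is filled, at 0.87, 0.72 and 0.70, and the other genes lie between -0.31 and 0.34.

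For the other 9 genes the *Tug1* KD difference did not pass the main test at any time. *Nfkbia* was nearest, with *Tug1* KD libraries of 25.8 to 33.3 RPM against control libraries of 28.1 to 47.6 RPM at EPS 0h. All 6 *Tug1* KD libraries were below the control mean, and the log2FC was -0.31 with a 95% interval of -0.57 to -0.05 (FDR 0.105). With the replicate number as a block, where same-numbered libraries of the 2 LNAs deviated together, it was -0.30 and passed (FDR 0.0401), and it also passed without Rest replicate 6 (-0.33, FDR 0.0412). These were the only 2 of the 10 alternatives in which it passed. Over all 10 it ran from -0.44 to -0.15, with an FDR of up to 0.627. *Nfkbib* had the narrowest intervals, from -0.19 to 0.24 at Rest, -0.21 to 0.23 at EPS 0h and -0.22 to 0.21 at EPS 3h. *Nfkbie* and *Bcl3* had wide ones, such as -0.40 to 0.52 and -0.53 to 0.31 at Rest, so differences of that size are not excluded by these libraries.

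Whether the response to EPS differed between *Tug1* KD and control myotubes was tested as an interaction. None of the 10 genes passed at either time in edgeR, DESeq2 or limma-voom, with 0 at an unadjusted p under 0.05 at both times, and across all tested genes 0% were called at EPS 0h and 0.00715% at EPS 3h. The largest difference was that of *Nfkbia* at EPS 0h, -0.36 with a 95% interval of -0.73 to 0.00 (unadjusted p = 0.0508, FDR 1 by edgeR). For *Cyld* the interaction was -0.15 (interval -0.57 to 0.28) at EPS 0h and -0.16 (interval -0.59 to 0.26) at EPS 3h.

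The remaining genes of the pathway were read from a list of 38, all of which passed the filter. In control myotubes 8 were higher and 12 lower at EPS 0h, where 20.5% and 18.4% of all genes were. At EPS 3h 9 were higher and 16 lower, beside 26.1% and 25.9% of all genes. The median log2FC of the list was -0.13 and -0.12, against -0.03 and -0.02 over all tested genes. Leaving out Rest replicate 6 gave 10 higher and 9 lower at EPS 0h, and 11 higher and 14 lower at EPS 3h. The medians were then -0.08 and -0.08. The other 2 subunits differed from each other: *Rel*, which encodes c-Rel, rose from 31.0 ± 7.42 to 64.4 ± 13.3 RPM at EPS 0h (log2FC 1.05, FDR 0.00011) and was at 46.7 ± 13.8 RPM at EPS 3h (0.59, FDR 0.0162). *Rela*, which encodes p65, was at 99.7 ± 14.2 RPM at Rest and 91.6 ± 14.3 and 92.0 ± 17.2 RPM after EPS (log2FC -0.12 and -0.12, FDR 0.506 and 0.503). *Nfkbid*, which encodes a further nuclear IkB, had the largest rise of the list: 0.909 ± 0.374 RPM in Rest control myotubes became 3.32 ± 0.661 RPM by EPS 0h and 10.3 ± 1.58 RPM by EPS 3h (log2FC 1.86 and 3.48, FDR 4.38e-06 and 2.54e-12).

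*Traf6*, a ubiquitin ligase that relays IL-1 and Toll-like receptor signals, rose by a log2FC of 1.32 at EPS 0h (FDR 7.91e-09). *Tnfrsf1b*, which encodes the second TNF receptor, fell by 1.89 on the log2 scale at EPS 3h (FDR 6.88e-07). In *Tug1* KD against control myotubes at Rest, 5 of the 38 were higher and 0 lower (edgeR, 10 at an unadjusted p under 0.05), beside 5.54% and 4.47% of all genes. Without Rest replicate 6 the count was 3 higher and 0 lower. The *Tug1* KD counts were 6 higher and 2 lower at EPS 0h (8.25% and 6.07% of all genes) and 4 higher and 1 lower at EPS 3h (6.38% and 5.11%). The genes called at Rest included *Tab3* (log2FC 0.64, FDR 0.0261), an adaptor of the TAK1 kinase, and *Irak1* (0.44, FDR 0.000209), a kinase of IL-1 receptor signalling.

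A second list held 21 genes known as NF-kB targets, of which 15 passed the filter. In control myotubes 2 were higher and 6 lower at EPS 0h (20.5% and 18.4% of all genes), and 2 higher and 11 lower at EPS 3h (26.1% and 25.9%), with median log2FC of -0.31 and -0.60, further from 0 than the medians of all genes given above. Without Rest replicate 6 there were 2 higher and 4 lower, then 2 higher and 8 lower, with medians of -0.11 and -0.46. The chemokine genes *Cxcl5* (log2FC -2.21, FDR 0.000178) and *Cxcl1* (-1.99, FDR 0.00181) had the largest falls at EPS 0h. At EPS 3h these were *Cxcl5* (-2.90, FDR 3.75e-06) and *Irf1*, a transcription factor gene (-2.52, FDR 5.77e-16). Rest replicate 6 held the highest control values, 116.3 RPM of *Cxcl1* against a Rest median of 29.1 and 32.8 RPM of *Cxcl5* against 7.8. Without it the EPS 0h values were -1.60 for *Cxcl5* (FDR 0.00104) and -1.35 for *Cxcl1* (FDR 0.0166), and at EPS 3h *Cxcl5* was at -2.28 (FDR 1.16e-05) and *Irf1* at -2.34 (FDR 1.63e-15). In *Tug1* KD against control myotubes at Rest 2 were higher and 0 lower (edgeR, 4 at an unadjusted p under 0.05, beside 5.54% and 4.47% of all genes), the cytokine gene *Il1b* (0.67, FDR 0.00587) and the survival gene *Bcl2l1* (0.51, FDR 0.0129). *Bcl2l1* did not pass without Rest replicate 6 (0.49, FDR 0.0572). The edgeR count was 1 higher and 0 lower at EPS 0h (8.25% and 6.07% of all genes, 4 of the list at an unadjusted p under 0.05), and 0 and 0 at EPS 3h (6.38% and 5.11%, 2 at an unadjusted p under 0.05).

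**Figure D5:**
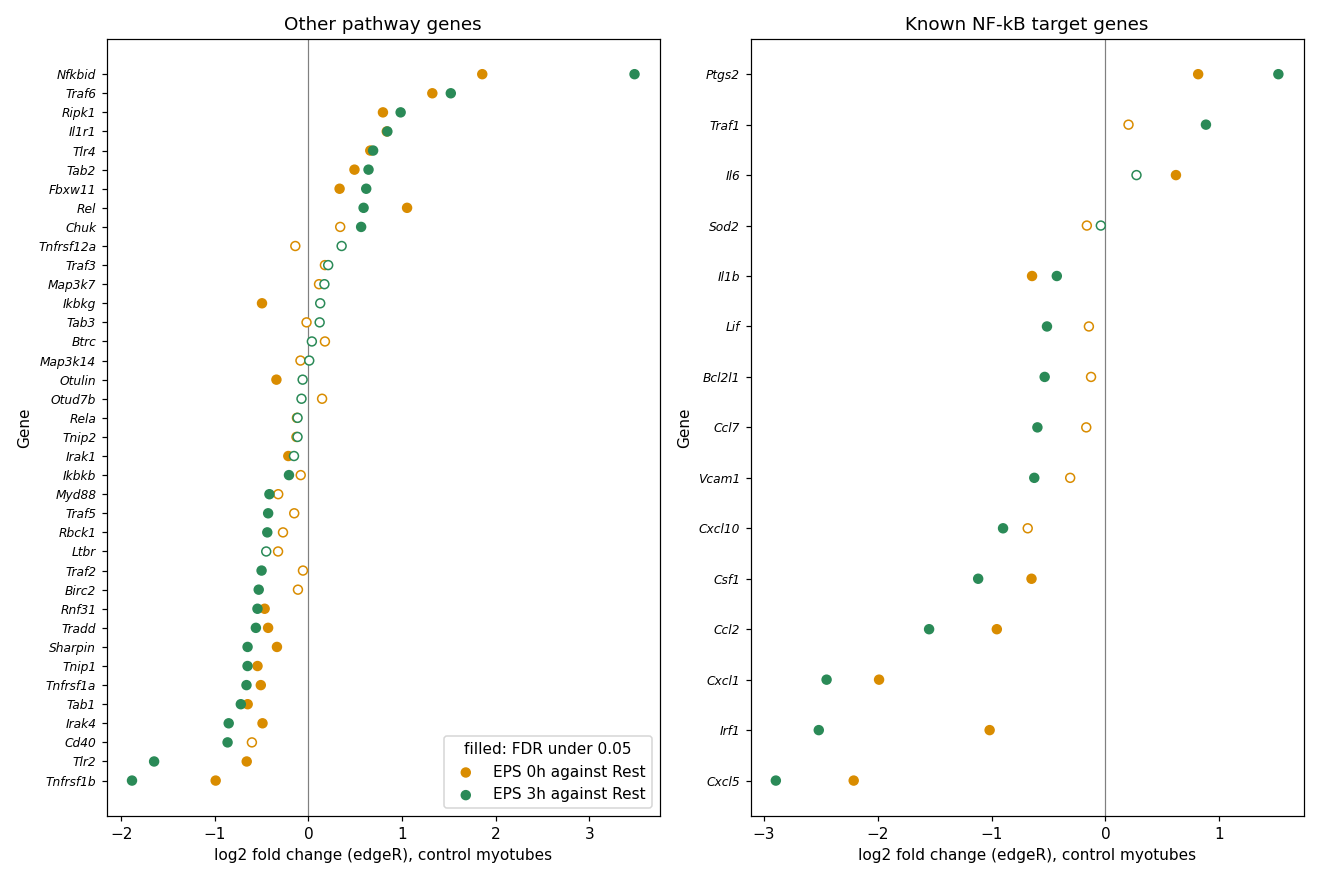
Points are the edgeR log2FC at EPS 0h (orange) and EPS 3h (green) against Rest in control myotubes for the 38 other pathway genes (left) and the 15 target genes that passed the filter (right), filled where the FDR is under 0.05. *Nfkbid* is the rightmost pathway gene at 3.48, and most target genes lie left of 0 at EPS 3h.

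Markers of other cell types were read beside these falls. Of 7 leukocyte markers, *Ptprc* was at 0 in 10, *Adgre1* in 27 and *Lyz2* in 2 of the 36 libraries. *Csf1r*, *Cd68*, *Itgam* and *Cd14* were at 0 in none. The 2 that passed the filter were both lower in control myotubes after EPS at each time. These were *Cd14* (log2FC -1.05, FDR 0.00242, then -1.97, FDR 5e-07) and *Cd68* (-0.44, FDR 0.0453, then -0.69, FDR 0.00137). The summed level of all 7 ranged from 8.93 to 16.4 RPM in Rest control, 5.57 to 9.60 RPM in EPS 0h control and 4.88 to 7.34 RPM in EPS 3h control libraries. The 2 markers of undifferentiated cells, *Pax7* and *Myf5*, summed to a median of 31.9 RPM at Rest, 55.6 RPM at EPS 0h and 30.2 RPM at EPS 3h in control myotubes. *Myf5* was higher at EPS 0h (log2FC 1.31, FDR 3.54e-06) and at 0.33 at EPS 3h (FDR 0.167), and *Pax7* was at 0.31 at EPS 0h (FDR 0.0735) and lower at EPS 3h (-0.62, FDR 0.000339). The 4 proliferation markers, such as *Mki67*, summed to medians of 127.7, 136.6 and 134.6 RPM at these times. Of these *Mki67* was higher (0.44, FDR 0.0299, then 0.41, FDR 0.0351), *Ccnb1* lower (-0.37, FDR 0.0181, then -0.42, FDR 0.00482), and *Cdk1* and *Top2a* were not called. The part of these cell types in the values of the 10 genes was not tested.

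Genes with the most similar profile to each member were found as those with the smallest root mean square difference of log2(RPM + 0.5), centred on each gene's mean, over the 36 libraries. *Nfkbia* was closest to *Cdc42ep2* (0.25) and *Irf1* (0.26), *Nfkbie* to *Zc3h12a* (0.30) and *Micall2* (0.31), and *Bcl3* to *Micall2* (0.28) and *Lrp8* (0.29). *Nfkbiz* was closest to *Crebbp* (0.23) and *Pan3* (0.25), and *Cyld* to *Dyrk1a* (0.20). For the subunits the nearest were *Heatr5a* (0.14) and *Osbpl3* (0.15) for *Nfkb1*, *Hid1* (0.14) and *Ipo13* (0.14) for *Nfkb2*, and *Smurf1* (0.16) and *Klhl26* (0.18) for *Relb*. *Tnfaip3* was nearest to *Zfp780b* (0.19) and *Zfp280b* (0.21), and *Nfkbib* to *Srprb* (0.11) and *Drg2* (0.12). Among the 10 genes themselves the smallest distances were those of *Relb* with *Nfkb2* (0.20) and *Nfkbie* with *Bcl3* (0.24). The distance is not scaled to how far a gene moved, so genes that moved little can lie close together. The root mean square of a gene's own centred values was 0.31 for *Relb*, 0.33 for *Nfkb2*, 0.75 for *Nfkbie* and 0.78 for *Bcl3*. The libraries share groups and depth, so these distances describe the profiles only.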

How the data were processed

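RNA of 36 wells was sequenced, and the authors trimmed reads with fastp 0.14.1, aligned them with STAR 2.5 to GRCm39 and deposited whole-number counts per gene, without normalization. The counting mode and strand setting are not given in the sources used here. Gene rows without a name (1492) hold 0.0327% of counts. Groups and replicate numbers come from the library titles, and no libraries of a group were duplicates.

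Genes reaching 1 RPM in 12 or more libraries (13995) entered the tests, TMM factors computed, and edgeR 4.0.16 (R 4.3.3) quasi-likelihood models fitted to 6 groups, checked on simulated data. Alternatives were DESeq2 1.42.0, limma-voom (limma 3.58.1), library-size scaling, no filter, blocks for replicate number or replicate set, and each replicate set alone. Fits without Rest replicate 6 or EPS 3h replicate 3 of both LNAs were added after seeing the data. Replicate sets (1 to 3, 4 to 6) were read from how libraries part, since the labels do not name the experiment.

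Replicate numbers were taken as pairs where all 6 same-numbered pairs correlated above 0.1 after centring within groups: *Tug1* KD against control after EPS (both times), each EPS time against Rest in control, and, in *Tug1* KD myotubes, EPS 0h against Rest and EPS 3h against EPS 0h.

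The 10 genes and the lists were chosen with earlier results of these data known. Named from the lists were *Rela*, *Rel* and, for each EPS time against Rest in control and for *Tug1* KD at Rest, the 2 called genes of each list with the largest absolute log2FC, plus the 2 genes nearest each member, of which 1 is not reported here. Marker examples were named as listed. Coordinates, lengths and sequences are from GENCODE vM39 on GRCm39, which holds 13946 of the genes tested. Of the 10 genes, 7 overlap another annotated gene and 2 a tested one.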

Additional observations from a re-analysis of the deposited data

Results flagged for a closer look

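A single library lay far from the other 5 of its group, by Dixon's gap ratio (gap to the nearest library over the group's range, above the 95% critical value), in 7 of 60 groups of values. Chance flags about 1 in 20 groups. In Rest control myotubes replicate 6 was the high library for *Bcl3* (16.5 RPM, ratio 0.852), *Tnfaip3* (79.3 RPM, ratio 0.807), *Nfkbie* (58.1 RPM, ratio 0.739), *Relb* (73.9 RPM, ratio 0.695) and *Nfkbia* (109.8 RPM, ratio 0.677). In EPS 3h control myotubes replicate 3 was the high library for *Nfkbib* (48.6 RPM, ratio 0.776) and *Relb* (52.1 RPM, ratio 0.717). The values without these libraries stand beside each gene where they change a call.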

How the results depend on the processing

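No called log2FC of the 10 genes changed sign under any of the 10 alternatives. The number called in *Tug1* KD against control at Rest was 0 in replicates 1 to 3 alone, and at EPS 0h it was 2 with the replicate block and 2 without Rest replicate 6, the added gene being *Nfkbia*. From EPS 0h to EPS 3h the number was 1 in control myotubes with limma-voom, 1 without the low-count filter and 1 in replicates 4 to 6 alone, and 1 in *Tug1* KD myotubes in replicates 1 to 3 alone. It was 3 in control myotubes with library-size scaling, the replicate block, the set block, without Rest replicate 6 and without EPS 3h replicate 3, *Bcl3* being added at an FDR of 0.0179 to 0.0375, and 3 in replicates 1 to 3 alone, where *Nfkbib* was added (FDR 0.0259). The sets of 3 replicates use fewer libraries, and for the rest the cause was not tested. Where the pairing holds, the block changed no other call. Where it does not, the block added *Bcl3* (EPS 3h against EPS 0h in control, FDR 0.0179), *Nfkbib* (FDR 0.0285) and *Tnfaip3* (FDR 0.0495, both EPS 3h against Rest in *Tug1* KD). Scaling by library size only moved the median log2FC of all genes by -0.17 at EPS 3h in both LNAs. Depth limits *Bcl3* most, at 1.44 RPM in its lowest library.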
